A study of Mus musculus with 9 samples.

Results

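The urokinase and plasminogen activation system of 4T1 cells was described here through 5 genes, of 52325 gene names in the deposited table. Plau and Plat encode the activators, Plaur the urokinase receptor, and Serpine2 and Serpinb2 inhibitors of the activators. They were picked by name with their group levels from an earlier look at these data known, so their own levels and group differences are a description, with no test. Plau was about 3-fold lower in both groups labelled as Wee1-targeted than in negative controls, and Serpinb2, at low values, and Serpine2 were on average higher. At Plaur and Plat the groups overlapped, whether named transcripts or all transcripts of the locus were counted.

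Urokinase and tissue-type plasminogen activator are secreted serine proteases that cut the zymogen plasminogen into plasmin, a broad protease that dissolves fibrin and degrades matrix. Urokinase works largely on the cell surface, where the glycolipid-anchored receptor encoded by Plaur holds it, and tissue-type activator works best on fibrin. Serpins trap the activators in a covalent complex, which is then taken up through receptors of the LDL receptor family. In mammary tumours this system is known for its part in invasion and spread, and urokinase is used as a prognostic marker in human breast cancer.

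The libraries came from 4T1, a mouse mammary carcinoma line, at day 2, with 3 libraries in each group. In the first group cells were treated with MK1775, also known as adavosertib, which inhibits the kinase Wee1, a brake on entry into mitosis. A second is labelled Wee1 siRNA knockdown. Its libraries are titled 1#, 2# and 3#, and the labels leave unsaid whether these are repeats of 1 siRNA or several siRNAs, so the SD of this group may span different siRNAs. The third, NC, is named as the negative control, and the labels do not say whether it received a vehicle or a control siRNA, so effects of solvent or transfection and of Wee1 targeting cannot be told apart. All groups were grown in DMEM with 10% serum. The labels give neither the MK1775 dose nor whether the cultures were separate, and the p-values therefore reflect no more than the variation among these 9 libraries, which may be technical.

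Wee1 itself averaged 15.5 ± 1.16 FPKM with MK1775, 14.5 ± 1.22 FPKM in the libraries labelled Wee1 siRNA and 11 ± 0.498 FPKM in NC (SD, n = 3 each). FPKM counts fragments per transcript length and per sequencing output of the library, so genes can be set side by side. By limma over 10453 genes, Wee1 was higher in the libraries labelled Wee1 siRNA than in NC (log2 difference 0.37, adjusted p = 0.00633), which goes against that label, so the group is called by its label throughout. Total FPKM ran from 321551 to 332950 per library and 10017 to 10783 genes reached 1 FPKM. Summed epithelial markers reached 769 to 787 FPKM with MK1775, 711 to 720 FPKM in the libraries labelled Wee1 siRNA and 415 to 482 FPKM in NC, with 5 of 8 at a mean of 1 FPKM or more. Nearly all of each sum came from Krt8 (means 290, 267 and 196 FPKM in the same order) and Krt18 (475, 435 and 251 FPKM). Cdh1 (5.32, 5.35 and 2.8 FPKM), Ocln (5.47, 5.28 and 5.06 FPKM) and Krt19 (1.71, 1.74 and 1.45 FPKM) added little. Among the epithelial markers Epcam, a defining epithelial gene, was low in all groups, at 0.435 ± 0.0986, 0.421 ± 0.183 and 0.0573 ± 0.0358 FPKM in the same order (SD, n = 3 each). Immune markers summed to 5.44 to 7.87 FPKM with MK1775, 6.78 to 8.98 FPKM in the libraries labelled Wee1 siRNA and 8.72 to 10.1 FPKM in NC, with 2 of 10 at 1 FPKM and Adgre1, Lyz2 and Cd3e listed at 0. Most of that sum came from Cd14 (means 4.2, 4.19 and 5.65 FPKM in the same order) and Cd68 (2.23, 2.63 and 3.69 FPKM). Ptprc (0.17, 0.326 and 0.0126 FPKM) and Itgam (0.277, 0.451 and 0 FPKM) were instead lowest in NC, at low values. Fibroblast markers summed to 2.12 to 2.72, 2.39 to 2.91 and 2.21 to 3.6 FPKM in that order (1 of 8 at 1 FPKM, Lum listed at 0) and endothelial markers to 0.366 to 0.505, 0.364 to 0.595 and 0.351 to 0.48 FPKM (0 of 7). Blood and platelet markers summed to 0.713 to 0.954, 1.04 to 1.08 and 0.0448 to 0.0951 FPKM (0 of 6, Pf4 and Gp9 listed at 0). In both treated groups nearly all of that sum came from Itga2b (means 0.762, 1.06 and 0.042 FPKM in the same order). Hbb-bs went the other way (0, 0 and 0.0317 FPKM). Whether these shifts play a part in the differences below was not tested.

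Promoter windows from RefSeq (build GRCm38.p6, 250 bases before to 50 after the start, 5′ to 3′ on the gene's strand) were at hand for 3 of the 5 genes. They are shown for the motif letters they hold, part of which they share. Plaur and Serpine2 both held GC boxes, and Plaur and Serpinb2 both held an AP-1 match. Plaur lies at chr7:24462233-24462532 on the plus strand, Serpine2 at chr1:79858616-79858915 on the minus strand and Serpinb2 at chr1:107511173-107511472 on the plus strand. Capitals mark an AP-1 match in Plaur, GC boxes in Serpine2 and the TATA box in Serpinb2.
Plaur: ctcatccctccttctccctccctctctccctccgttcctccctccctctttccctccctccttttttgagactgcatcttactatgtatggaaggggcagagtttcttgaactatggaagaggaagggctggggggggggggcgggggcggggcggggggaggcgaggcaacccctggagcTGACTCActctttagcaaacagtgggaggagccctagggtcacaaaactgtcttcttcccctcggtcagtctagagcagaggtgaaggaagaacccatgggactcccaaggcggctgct
Serpine2: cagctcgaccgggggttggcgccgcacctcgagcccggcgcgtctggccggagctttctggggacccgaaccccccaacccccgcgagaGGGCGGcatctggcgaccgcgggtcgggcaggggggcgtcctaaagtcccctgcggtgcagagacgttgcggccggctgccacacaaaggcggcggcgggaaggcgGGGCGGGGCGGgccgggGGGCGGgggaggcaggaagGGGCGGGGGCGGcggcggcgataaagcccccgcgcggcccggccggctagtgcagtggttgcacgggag
Serpinb2: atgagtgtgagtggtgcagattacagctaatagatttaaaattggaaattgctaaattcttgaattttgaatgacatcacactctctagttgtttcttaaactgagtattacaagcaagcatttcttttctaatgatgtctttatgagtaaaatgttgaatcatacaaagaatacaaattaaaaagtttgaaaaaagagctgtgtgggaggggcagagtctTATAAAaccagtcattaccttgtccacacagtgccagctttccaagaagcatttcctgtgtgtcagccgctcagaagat
The letters searched on both strands were TGANTCA for AP-1, TGACGTCA for CRE, GGGCGG for the GC box, TATAAA for the TATA box and CCGGAAG for an ETS core. Plaur held TGACTCA 69 bases before its start, and 3 GC boxes that begin between 111 and 100 bases before it and together cover 17 bases, so that 1 base is shared. This is the RefSeq start. Much of the Plaur FPKM lay on an unnamed transcript that starts 990 bases upstream of the first named start. The bases before that upstream start were not searched. Serpine2 held 6 GC boxes that begin between 161 and 13 bases before its start and together cover 35 bases. Serpinb2 held TATAAA 29 bases before its start, and TGAATCA, also an AP-1 match, 94 bases before it. The RefSeq table holds 2 entries for Serpinb2, and the window printed is that of the upstream start. Counted from the other start, further downstream, the same letters lie 116 and 181 bases upstream. Of 32851 promoters of the same length, 7.81% held the AP-1 letters, 35.7% the GC box, 13.6% the TATA box, 1.79% the CRE and 8.86% the ETS core. The CRE and ETS letters were not in these 3 windows. A match of letters is not a measured binding site.

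Plau, which encodes urokinase (chromosome 14, 20886728 to 20893453, plus strand, GRCm39), had 21.2, 22.0 and 22.3 FPKM with MK1775. The libraries labelled Wee1 siRNA had 21.3, 21.4 and 21.2 FPKM, and the NC libraries had 59.5, 62.0 and 68.5 FPKM. The treated libraries lay within a narrow band, and every one was below every NC library. The means were 21.8 ± 0.565 FPKM with MK1775, 21.3 ± 0.0946 FPKM in the libraries labelled Wee1 siRNA and 63.3 ± 4.61 FPKM in NC (SD, n = 3 each). NC was thus 2.9-fold above MK1775 and 2.97-fold above the libraries labelled Wee1 siRNA. In NC cells Plau ranked 724 of 52306 genes by FPKM and was the most abundant of the 5 members, whereas the receptor locus stood above it in both other groups.

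On the log2(FPKM + 1) scale the difference of Plau was -1.49 for MK1775 minus NC (SE 0.0558, 95% interval -1.62 to -1.36). It was -1.53 for the libraries labelled Wee1 siRNA minus NC (SE 0.0558, interval -1.65 to -1.4). Both comparisons share the 3 NC libraries. Ordered by the size of a negative difference, Plau stood at place 30 of 10453 genes with MK1775 and at place 28 in the libraries labelled Wee1 siRNA. MK1775 minus the libraries labelled Wee1 siRNA gave 0.03 (interval -0.0954 to 0.162). In bulk RNA, fewer cells that express a gene and less RNA per cell cannot be told apart.

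Nearly all of this level came from 1 transcript, ENSMUST00000022368, with 11 exons and 2342 bases. The other named transcript, which starts 64 bases further downstream, was listed at 0 in all libraries except 1 labelled Wee1 siRNA, at 0.0147 FPKM. No unnamed assembled transcript lay at the locus. The nearest genes at 1 FPKM or more on either side went the other way by limma with Benjamini-Hochberg adjustment: Gm30108, 40.1 kb away, was higher with MK1775 (log2 difference 0.62, adjusted p = 0.0139). Vcl, which encodes the adhesion protein vinculin and lies 86.0 kb away, averaged 34.3 ± 0.98, 33.6 ± 0.771 and 26.4 ± 0.837 FPKM in MK1775, in the libraries labelled Wee1 siRNA and in NC (SD, n = 3 each; adjusted p = 0.000376 for MK1775 minus NC and 0.000512 for the libraries labelled Wee1 siRNA minus NC, limma).

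**Figure D1:**
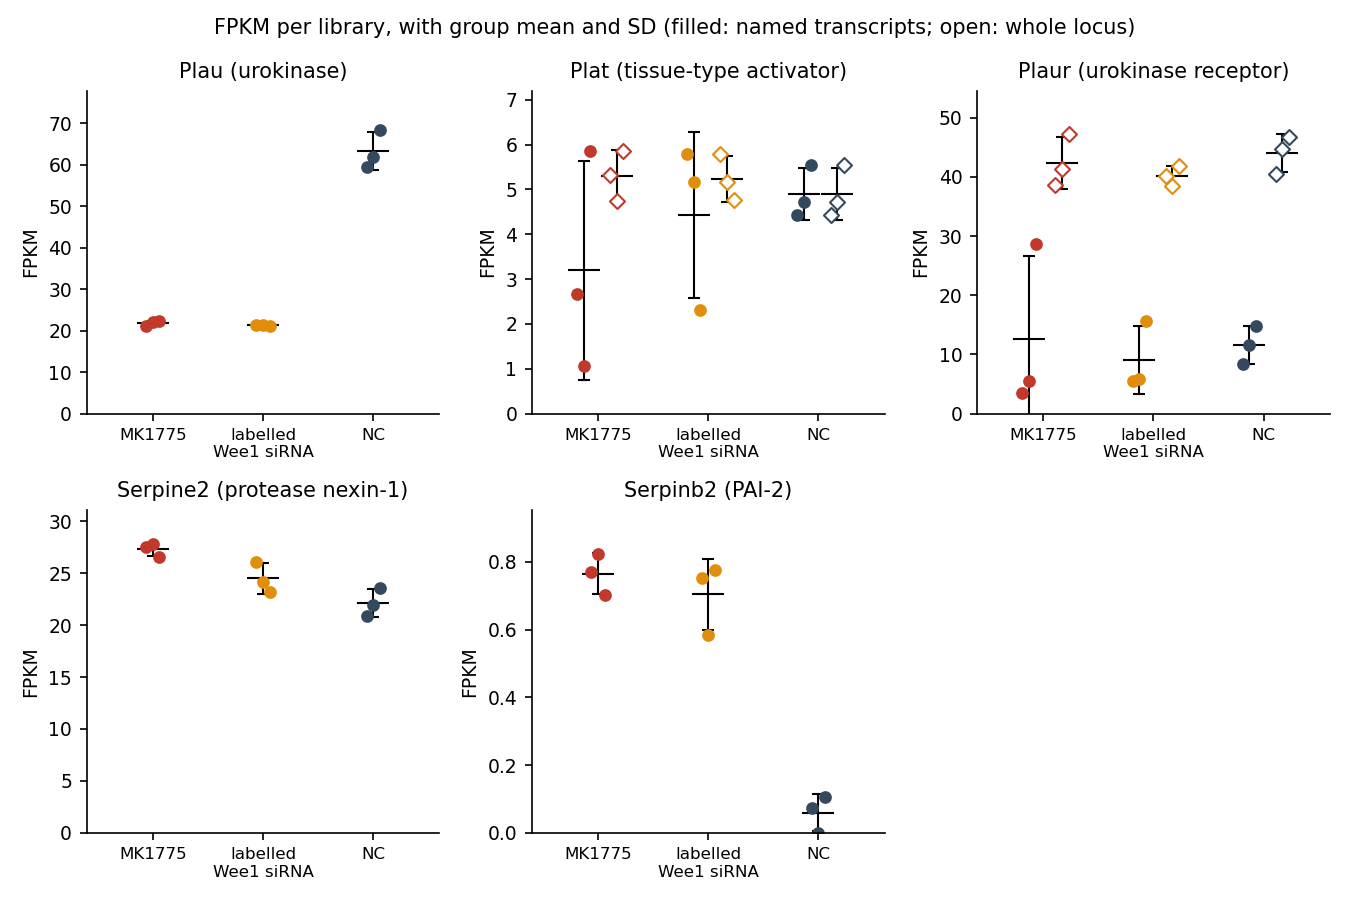
FPKM of the 5 members in each library (points), with group means (horizontal bars) and SD (vertical bars, n = 3); filled points sum named transcripts and open diamonds the whole locus. Plau lies at 21.2 to 22.3 FPKM in all treated libraries and at 59.5 to 68.5 FPKM in NC, while the Plat and Plaur loci overlap between groups.

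Plat, which encodes tissue-type plasminogen activator (chromosome 8, 23247743 to 23272860, plus strand), had 2.66, 1.06 and 5.86 FPKM over its named transcripts with MK1775. The libraries labelled Wee1 siRNA had 5.79, 5.16 and 2.31 FPKM, and NC had 4.43, 4.71 and 5.55 FPKM. The 3 low libraries, MK1775 1 and 2 and the library labelled Wee1 siRNA 3, were those in which the authors' assembly placed an unnamed transcript at the same locus. That transcript has 15 exons and 2869 bases, starts 918 bases upstream of the first named start and ends where the main named transcript ends. It had 2.66 and 3.67 FPKM in MK1775 libraries 1 and 2 and 2.46 FPKM in library 3 labelled Wee1 siRNA, and was listed at 0 in the other 6 libraries.

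With it, the Plat locus averaged 5.31 ± 0.562 FPKM with MK1775, 5.24 ± 0.514 FPKM in the libraries labelled Wee1 siRNA and 4.89 ± 0.582 FPKM in NC (SD, n = 3 each), and the groups overlapped. The log2 difference for MK1775 minus NC was -0.66 (SE 0.43) over named transcripts and 0.10 (SE 0.0991, interval -0.127 to 0.323) over the locus. For the libraries labelled Wee1 siRNA minus NC it was -0.18 (SE 0.43) and 0.08 (SE 0.0991). Plau over Plat, as a ratio of locus FPKM per library, was 4.15 ± 0.45 with MK1775, 4.09 ± 0.386 in the libraries labelled Wee1 siRNA and 13.0 ± 0.572 in NC.

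Plaur, which encodes the urokinase receptor (chromosome 7, 24161909 to 24175393, plus strand), had 3.53, 5.52 and 28.7 FPKM over its 6 named transcripts with MK1775. The libraries labelled Wee1 siRNA had 5.51, 5.87 and 15.6 FPKM, and NC had 8.41, 11.5 and 14.8 FPKM. Library 3 was the highest of each group, and the groups overlapped. Much of the receptor's FPKM sat on unnamed assembled transcripts, which held 39.2% to 90.9% of the locus. The main one has 8 exons and 2144 bases, starts 990 bases upstream of the first named start and shares the end of ENSMUST00000002284, the longest-spanning named transcript.

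That transcript had 35.0, 31.0 and 18.5 FPKM with MK1775, 34.6, 32.6 and 26.2 FPKM in the libraries labelled Wee1 siRNA, and 32.1, 33.1 and 17.2 FPKM in NC. It was thus lowest in library 3 of each group, where ENSMUST00000002284 was highest, at 22.1, 10.8 and 9.14 FPKM in the same order. A further unnamed transcript, 566 bases upstream, was found in NC library 3 alone, at 14.8 FPKM. Another, with 9 exons and a start 2367 bases upstream, had 4.83 FPKM in MK1775 library 2 and at most 0.101 FPKM elsewhere.

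Summed over the locus, Plaur had 38.6, 41.4 and 47.2 FPKM with MK1775, 40.1, 38.5 and 41.8 FPKM in the libraries labelled Wee1 siRNA, and 40.5, 44.7 and 46.8 FPKM in NC. The SD of the locus sum was 4.38 FPKM with MK1775 and 1.67 FPKM in the libraries labelled Wee1 siRNA, smaller than the 14.0 and 5.71 FPKM over named transcripts. In NC the SD was about the same by either sum, at 3.24 FPKM over the locus and 3.19 FPKM over named transcripts (n = 3 each). The locus differences were -0.05 for MK1775 minus NC (interval -0.235 to 0.128) and -0.13 for the libraries labelled Wee1 siRNA minus NC (interval -0.31 to 0.0533) on the log2(FPKM + 1) scale. Over named transcripts the same differences were -0.36 (SE 0.683) and -0.44 (SE 0.683), and for MK1775 the value ran from -1.18 to 0.18 when each library was left out in turn. Plau over Plaur, by locus FPKM, was 0.518 ± 0.0405 with MK1775, 0.532 ± 0.0245 in the libraries labelled Wee1 siRNA and 1.44 ± 0.0455 in NC.

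**Figure D2:**
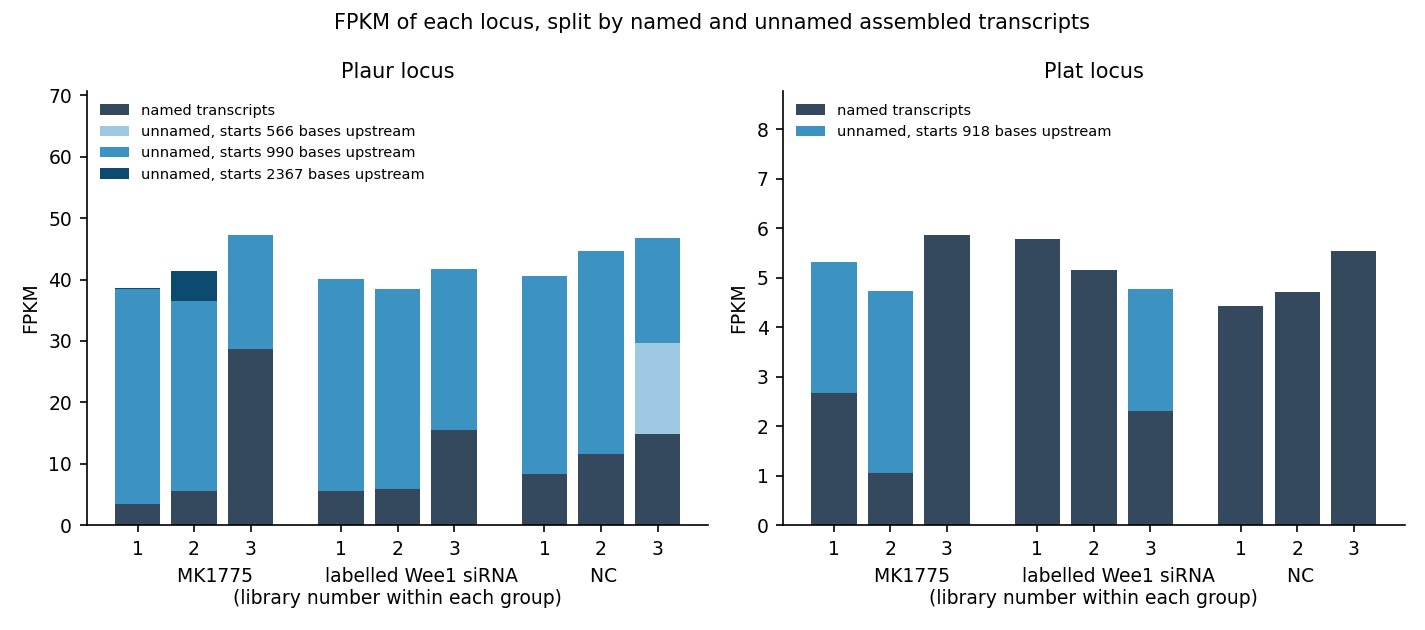
FPKM at the Plaur and Plat loci in each library, split into named transcripts and unnamed assembled transcripts, with the distance of each unnamed start from the first named start. The stacked totals stay at 38.5 to 47.2 FPKM for Plaur and 4.43 to 5.86 FPKM for Plat, while the named part ranges from 3.53 to 28.7 FPKM and from 1.06 to 5.86 FPKM.

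Serpine2 encodes protease nexin-1, a cell-surface inhibitor of thrombin, urokinase and plasmin (chromosome 1, 79771914 to 79838897, minus strand). It had 27.5, 27.8 and 26.6 FPKM with MK1775, 26.1, 24.2 and 23.2 FPKM in the libraries labelled Wee1 siRNA, and 20.9, 21.9 and 23.6 FPKM in NC. All MK1775 libraries were above all others, and the libraries labelled Wee1 siRNA overlapped NC. The log2 difference was 0.29 for MK1775 minus NC (SE 0.0617, interval 0.151 to 0.436), a 1.23-fold ratio of mean FPKM. It was 0.14 for the libraries labelled Wee1 siRNA minus NC (interval -0.00221 to 0.282) and 0.15 for MK1775 minus the libraries labelled Wee1 siRNA (interval 0.0114 to 0.296). Of 6 named transcripts, ENSMUST00000027467, with 9 exons and 2210 bases, gave 20.8 to 27.7 FPKM, the others together little, and no unnamed transcript lay there.

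Serpinb2 encodes PAI-2, an inhibitor of urokinase and tissue-type activator that is kept mostly inside the cell (chromosome 1, 107439153 to 107463208, plus strand). It had 0.769, 0.824 and 0.702 FPKM with MK1775, 0.754, 0.584 and 0.776 FPKM in the libraries labelled Wee1 siRNA, and 0.0729, 0 and 0.106 FPKM in NC. Every treated library was above every NC library, yet none reached 1 FPKM, the minimum mean for the fit. Without that minimum, the log2(FPKM + 1) difference was 0.74 for MK1775 minus NC (interval 0.555 to 0.919) and 0.69 for the libraries labelled Wee1 siRNA minus NC (interval 0.503 to 0.867). Its size depends on the added constant: with 0.1 in place of 1 the differences were 2.50 and 2.39.

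Higher values in all treated libraries were frequent among low genes. Of 5168 genes with a mean of 0.1 to 1 FPKM, 34.3% had all MK1775 libraries above all NC libraries, and 6.66% had them all below. For the libraries labelled Wee1 siRNA the shares were 37.4% above and 5.07% below. By direction, Serpinb2 thus stands with a large share of genes of its level. These shares count a gap of any size, and the size of its rise was not set against those genes. Its FPKM was divided between transcripts that start 74 bases apart: ENSMUST00000009356 had 0.426, 0.752 and 0.353 FPKM with MK1775, 0.533, 0.169 and 0.268 FPKM in the libraries labelled Wee1 siRNA, and was listed at 0 in NC. ENSMUST00000064916 had 0.0721 to 0.35 FPKM with MK1775, 0.22 to 0.508 FPKM in the libraries labelled Wee1 siRNA and 0 to 0.106 FPKM in NC. The other 2 named transcripts were listed at 0 in all libraries.

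Of the 5 members, 4 reached the mean of 1 FPKM and entered the fit, Serpinb2 being the one below it. By FPKM, which is scaled to transcript length, the order of mean locus levels was Plaur, Serpine2, Plau, Plat and Serpinb2 with MK1775 and in the libraries labelled Wee1 siRNA. In NC it was Plau, Plaur, Serpine2, Plat and Serpinb2. In each group neighbours in that order did not overlap between libraries.

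**Figure D3:**
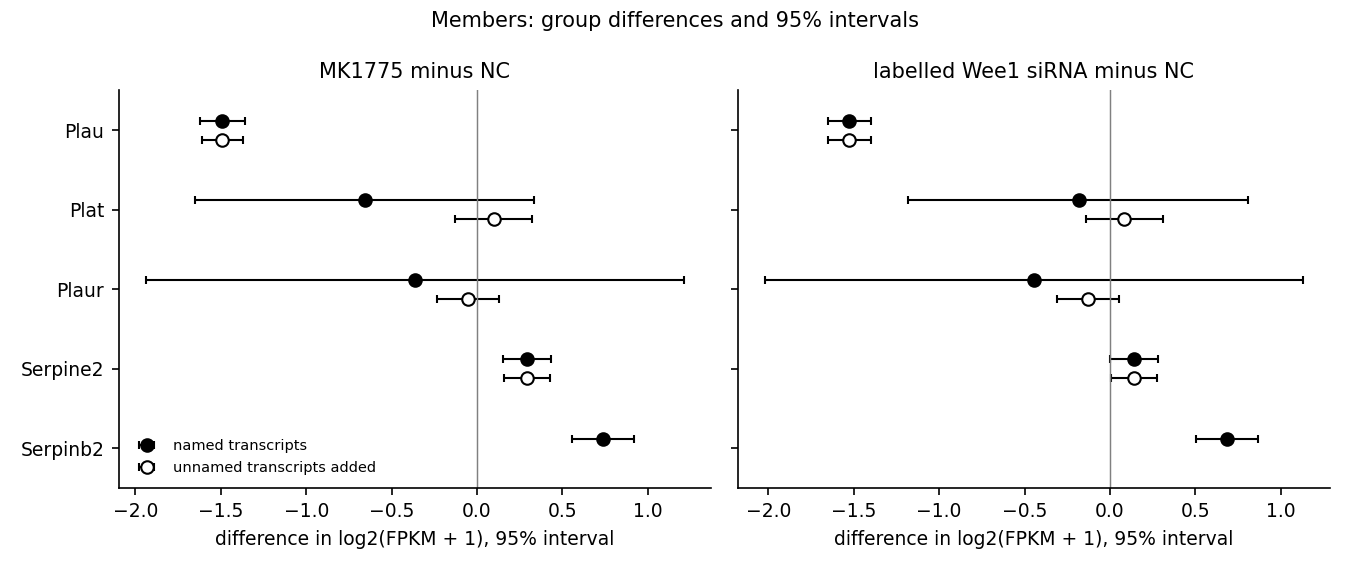
Log2(FPKM + 1) differences of the 5 members with 95% intervals from the limma fit, from named transcripts (filled) and with unnamed transcripts of the locus added (open). The intervals of Plat and Plaur narrow around values between -0.13 and 0.10 once the locus is summed, and Plau stays at -1.49 and -1.53.

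Besides the members, 92 genes of the system were listed by role, of which 36 had a mean of at least 1 FPKM. With MK1775, 11 were higher and 3 lower than in NC, with a median log2 difference of 0.0839 over the 36, against -0.0402 over all genes tested. In the libraries labelled Wee1 siRNA 12 were higher and 4 lower, with a median of 0.1239 against -0.0125. Over all 10453 genes, 41% were called with MK1775 and 42.8% in the libraries labelled Wee1 siRNA. By direction, 17.9% were called higher and 23.1% lower with MK1775, and for the libraries labelled Wee1 siRNA 19.6% higher and 23.2% lower. MK1775 minus the libraries labelled Wee1 siRNA gave 0 calls in this list by limma, where 0.00957% of genes were called (1 gene, with 616 at an unadjusted p under 0.05).

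Among the other inhibitors of the system, Serpinf2, the plasmin inhibitor alpha-2-antiplasmin, reached at most 0.0286 FPKM, and Serpinb8 was listed at 0 in all libraries. Of 11 genes for activation and processing, 5 were tested, and 2 rose with MK1775 and 3 in the libraries labelled Wee1 siRNA. Spint1 and Spint2 encode membrane inhibitors of the proteases that activate HGF. Spint1 averaged 27.7 ± 0.76, 28.1 ± 0.595 and 19.2 ± 0.757 FPKM in MK1775, in the libraries labelled Wee1 siRNA and in NC (SD, n = 3 each; limma adjusted p = 9.26e-05 and 7.94e-05 against NC). Spint2 had log2 differences of 0.23 and 0.18 (limma adjusted p = 0.0113 and 0.0331). Ctsl, the lysosomal protease cathepsin L, varied widely within groups, at 302 ± 142, 414 ± 121 and 180 ± 101 FPKM (SD, n = 3 each), with a log2 difference of 0.78 with MK1775 (limma adjusted p = 0.204) and 1.29 in the libraries labelled Wee1 siRNA (0.0485). The second of these calls was lost in 9 of 17 alternatives, among them leaving out library 2 or 3 of NC or of the libraries labelled Wee1 siRNA, or MK1775 library 1 or 3. Without NC library 1, Ctsl passed with MK1775 (1.21, limma adjusted p = 0.0491). St14, which encodes matriptase, an activator of pro-urokinase, lay under the minimum at 0.682 ± 0.597, 1.11 ± 0.564 and 0.561 ± 0.398 FPKM. Plg, the plasminogen gene itself, was listed at 0 in all libraries, as were F12 and F11.

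On the cell surface, 19 of 28 genes for binding and uptake were tested, and 5 rose and 3 fell against NC in each comparison. Anxa2 and S100a10 encode the heterotetramer that holds plasminogen and tissue-type activator at the membrane. Anxa2 averaged 548 ± 58.3 FPKM with MK1775, 556 ± 46.5 FPKM in the libraries labelled Wee1 siRNA and 387 ± 82.8 FPKM in NC (SD, n = 3 each; log2 differences 0.52 and 0.54, limma adjusted p = 0.0299 and 0.0244). Its partner S100a10 averaged 357 ± 8.7, 357 ± 2.24 and 321 ± 18.4 FPKM (log2 difference 0.16 in both, limma adjusted p = 0.0256 and 0.0244). S100a4, an S100 protein that also binds annexin A2, fell to 561 ± 23.1 FPKM with MK1775 and 575 ± 14.3 FPKM in the libraries labelled Wee1 siRNA, against 761 ± 50.4 FPKM in NC (limma adjusted p = 0.000452 and 0.000661). The call of Anxa2 with MK1775 was lost in 6 of 17 alternatives. Among them were those without NC library 1 or 3 or without MK1775 library 1 or 3 (limma adjusted p = 0.0521, 0.0568, 0.0905 and 0.086). For the libraries labelled Wee1 siRNA it was lost in 4 of 17, among them those without their library 1 or 2 (limma adjusted p = 0.0627 and 0.0752). These fits used named transcripts. With unnamed transcripts added, Anxa2 averaged 587 ± 7.78, 587 ± 15.2 and 432 ± 30.4 FPKM in MK1775, in the libraries labelled Wee1 siRNA and in NC. It was then called in both comparisons with NC (limma adjusted p = 0.000116 and 0.000108). The call of S100a10 with MK1775 was lost in 3 of 17 alternatives, among them those without MK1775 library 1 or 3 (limma adjusted p = 0.0832 and 0.0744). For the libraries labelled Wee1 siRNA it was lost in 5 of 17, among them those without any 1 of these libraries (limma adjusted p = 0.0516, 0.0674 and 0.0625).

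Eno1, a glycolytic enzyme that also serves as a plasminogen receptor, fell by 0.19 with MK1775 and by 0.26 in the libraries labelled Wee1 siRNA on the log2 scale (limma adjusted p = 0.0483 and 0.0123). The call with MK1775 was lost in 12 of 17 alternatives, among them 8 of the 9 that leave out a library, all but the one without NC library 1. Krt8, a keratin that binds plasminogen at the surface of carcinoma cells, rose by 0.57 and 0.45 (limma adjusted p = 8.22e-05 and 0.000252). It is itself a large part of the epithelial marker sum above. Itgb1, an integrin subunit, rose by 0.39 and 0.40 (limma adjusted p = 0.0011 and 0.000991). Itga5, its fibronectin-receptor partner, had -0.25 with MK1775 (adjusted p = 0.0657, limma) and fell by 0.39 in the libraries labelled Wee1 siRNA (adjusted p = 0.0113, limma). Without MK1775 library 3, or in the fit with unnamed transcripts added, it passed with MK1775 too (limma adjusted p = 0.0314 and 0.0393). Unnamed transcripts held 0% of the Itga5 FPKM, so its levels and its difference were the same in the second of these fits. Lrp1, the uptake receptor for activator and inhibitor complexes, differed by -0.04 and -0.07 (intervals -0.291 to 0.208 and -0.319 to 0.181). Mrc2, a collagen receptor that associates with the urokinase receptor, lay under the minimum at 0.803 ± 0.075, 0.916 ± 0.0828 and 0.458 ± 0.0231 FPKM, and Vtn, which encodes the receptor's ligand vitronectin, was listed at 0.

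Of 15 substrates and targets of plasmin, 9 were tested. With MK1775, 3 rose and 0 fell, and in the libraries labelled Wee1 siRNA 3 rose and 1 fell. Vegfa, an angiogenic factor that plasmin releases from matrix, averaged 8.78 ± 0.794, 10.4 ± 2.1 and 3.31 ± 0.371 FPKM in MK1775, in the libraries labelled Wee1 siRNA and in NC (SD, n = 3 each; log2 differences 1.18 and 1.40, limma adjusted p = 0.000294 and 0.000122). Fn1, fibronectin, averaged 76.0 ± 2.49, 74.1 ± 6.99 and 45.5 ± 2.45 FPKM (log2 differences 0.73 and 0.69, limma adjusted p = 0.000151 and 2e-04). F2rl1, a protease-activated receptor, rose by 0.27 and 0.19 (limma adjusted p = 0.0038 and 0.0169). Met, the receptor of HGF, had -0.57 with MK1775 (limma adjusted p = 0.0896) and fell by 0.91 in the libraries labelled Wee1 siRNA (limma adjusted p = 0.0155). Without library 1 or 3 of those labelled Wee1 siRNA the fit also called it with MK1775 (0.0356 and 0.0393). With all libraries and unnamed transcripts added, Met was called lower in both comparisons (log2 differences -0.37 and -0.44, limma adjusted p = 0.00123 and 0.000418).

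The handling of unnamed transcripts moved the pathway counts. With them added, 12 genes were higher and 10 lower of 37 tested for MK1775 minus NC, and 16 higher and 12 lower for the libraries labelled Wee1 siRNA minus NC, where 54.1% and 56.2% of 10938 genes were called. Between both treated groups 0.00914% of genes were called by that count. Of the 10 falls with MK1775, 7 were among the 19 cell-surface genes tested, 2 among the 3 serpin relatives and 1 among the 9 plasmin targets. Itga5 is among these falls, though its own FPKM was the same by both counts. The shares over all genes by this count cover both directions and were not split. Itgb2, the common subunit of the leukocyte integrins, turned round: its named transcripts averaged 8.55 ± 1.81, 9.22 ± 0.476 and 5.09 ± 0.863 FPKM, a rise (limma adjusted p = 0.0101 and 0.00449), while the locus averaged 16.8 ± 0.237, 15.6 ± 0.534 and 24.8 ± 1.54 FPKM in MK1775, in the libraries labelled Wee1 siRNA and in NC, a fall (SD, n = 3 each; limma adjusted p = 3.96e-05 and 1.46e-05). Plgrkt, a plasminogen receptor, was called lower with MK1775 over named transcripts (log2 difference -0.47, limma adjusted p = 0.0123) and had 0.05 over the locus.

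Of 29 relatives of the serpin members, 3 were tested. Over named transcripts Serpinh1 had 0.22 and 0.06 and Serpinb6a had -0.34 and -0.33 on the log2 scale against NC, and neither passed the test. With unnamed transcripts added, Serpinh1, a collagen chaperone, fell to 129 ± 2.12 FPKM with MK1775 and 119 ± 3.86 FPKM in the libraries labelled Wee1 siRNA, against 180 ± 13.1 FPKM in NC (SD, n = 3 each; limma adjusted p = 1e-04 and 2.57e-05). Serpinb6a, an intracellular protease inhibitor, fell by 0.38 and 0.37 on the log2 scale (limma adjusted p = 0.000135 and 0.000161). St14 then passed the minimum and rose, at 1.34 ± 0.159, 1.46 ± 0.0691 and 0.822 ± 0.0592 FPKM (limma adjusted p = 0.00391 and 0.00135).

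**Figure D4:**
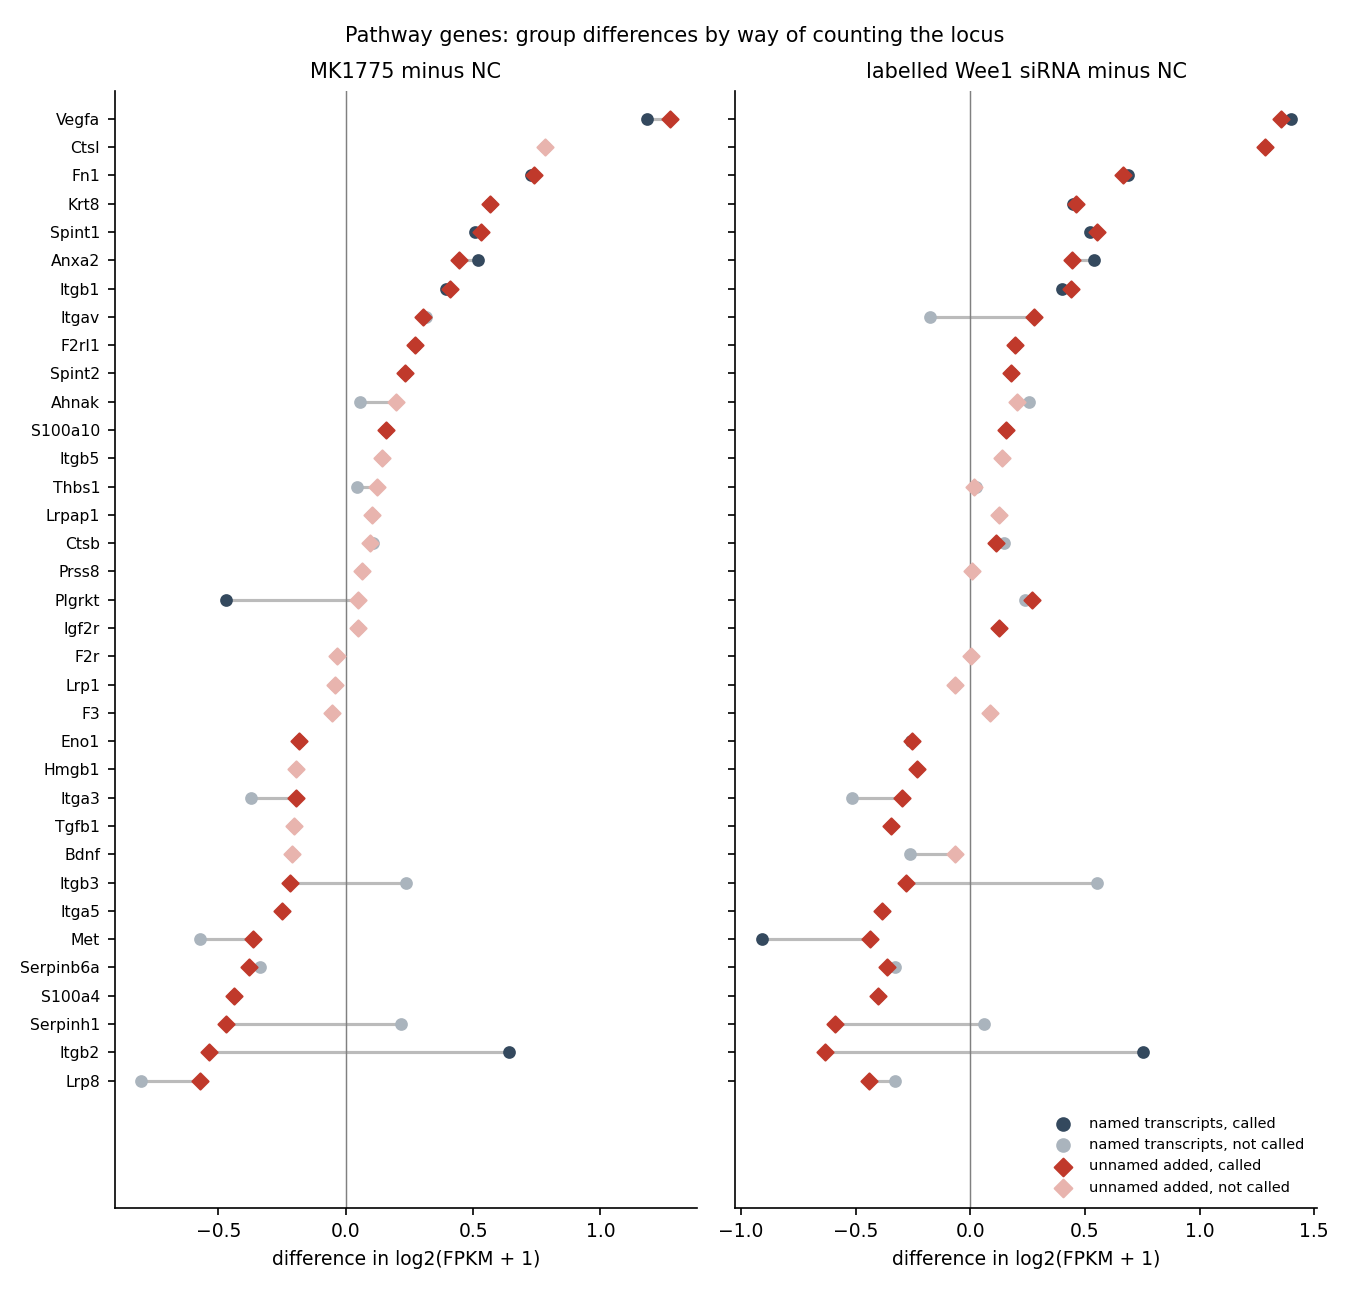
Log2(FPKM + 1) differences of 35 of the 36 tested pathway genes against NC, from named transcripts (circles) and with unnamed transcripts of the locus added (diamonds); dark symbols have a limma adjusted p under 0.05. Vegfa lies at 1.18 or above in both panels by either count, and Itgb2 changes side.

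Genes whose profiles over the 9 libraries were most like a member's were found by the root mean square difference between mean-centred log2(FPKM + 1) values. For Plau these were Nrarp (0.0693), a regulator of Notch signalling, Rrm2 (0.0743), a subunit of ribonucleotide reductase, and Fads2 (0.0949), a fatty acid desaturase. Nrarp averaged 12.2 ± 0.361 FPKM with MK1775, 11.8 ± 0.0883 FPKM in the libraries labelled Wee1 siRNA and 38.0 ± 2.39 FPKM in NC (SD, n = 3 each). For Serpine2 they were Dis3l (0.0469), F2rl1 (0.0529) and Kcmf1 (0.0534). For Plat they were Gramd4 (0.191) and Osgep (0.208), and for Plaur Adgrf5 (0.489), Cdk11b (0.514) and Map4k4 (0.515), at distances several times those of Plau. These profiles sum named transcripts alone. In MK1775 library 2, where named Plat was lowest, Gramd4 had 1.26 FPKM over named transcripts and 14.2 FPKM over the locus. Osgep had 1.39 and 11.5 FPKM there.

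The Plaur-like genes shared with it a large unnamed part at the locus. Map4k4, a kinase, averaged 6.07 ± 3.59 FPKM over named transcripts and 31.5 ± 0.807 FPKM over the locus with MK1775, and 6.5 ± 3.74 against 32.5 ± 0.5 FPKM in NC (SD, n = 3 each). Around the members, Cadm4, 6.05 kb from Plaur, rose by 0.41 with MK1775 and by 0.44 in the libraries labelled Wee1 siRNA (limma adjusted p = 0.00634 and 0.00412), while Smg9 on the other side had 0.14 and -0.13. Mrpl44, 12.8 kb from Serpine2, fell by 0.32 and 0.44 (limma adjusted p = 0.0305 and 0.00801). Ap3m2 and Ikbkb beside Plat, and Cul3 beside Serpine2, did not pass the test. The nearest such genes to Serpinb2 were 715 kb away (Vps4b, 0.05 and 0.34, limma adjusted p = 0.722 and 0.0197) and, on the other side, 10800 kb away (Tsn, which fell by 0.58 and 0.57, limma adjusted p = 7.72e-05 and 7.76e-05).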

How the data were processed

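RNA of 4T1 cells was sequenced in 9 libraries, 3 per group, at day 2. The authors deposited FPKM per transcript for 158719 transcripts, of which 17991 assembled ones carry no gene name. The submitters' processing notes name FastQC, Trim Galore, HISAT2 and StringTie, without versions, and the build GRCm39. Poly(A) selection, strand-aware counting and read depth are not stated in the sources at hand. Of low values, 24.3% to 37.9% per library lay within 0.1 of a whole multiple of 1 step, so reads were not recovered and depth is unknown.

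FPKM was summed over the transcripts of a gene name, leaving out 19 names on more than 1 chromosome (52306 genes kept). As an alternative, 9580 unnamed transcripts were added where their assembled locus holds exactly 1 named gene. The 10453 genes averaging 1 FPKM or more entered a limma 3.58.1 fit (R 4.3.3, with version 1.17.8 of data.table) on log2(FPKM + 1), with 3 group means, all 9 libraries and eBayes with trend. P-values are two-sided and Benjamini-Hochberg adjusted over all genes tested, with calls under 0.05. For low genes this scale makes fold changes smaller than they are. An exact permutation test of 3 against 3 libraries cannot give a p below 0.1. The script was tested on simulated data. Python 3.11.15, pandas 2.3.3 and matplotlib 3.10.9 made summaries and figures.

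The members and gene lists were chosen with earlier results of these data known. The rule for named genes takes the members and Wee1; Plg, Serpinf2, Plgrkt, Anxa2, S100a10, Lrp1, St14, Vtn, Serpinb8 and Mrc2; per comparison the 4 largest called rises and falls of the pathway lists; the 3 genes most like each member; and its nearest neighbours at 1 FPKM. Spint1, Spint2, Krt8, Itgb1, F2rl1 as a pathway gene, Serpinh1, Serpinb6a, F12, F11 and the marker genes were chosen after their values were seen, as was the range of 0.1 to 1 FPKM set beside Serpinb2. Alternatives were pseudocounts of 0.1 and 0.01, no minimum, a minimum of 5 FPKM, median-of-ratios size factors, the most abundant named transcript, unnamed transcripts added, the replicate number as a block and leaving out each library. Results that the rule names for 2 further genes are not reported here, though counts over the lists include them.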

Additional observations from a re-analysis of the deposited data

Results flagged for a closer look

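Unnamed assembled transcripts lie outside the sums over gene names, and at the member loci some exceeded the highest NC library. At Plat, the unnamed transcript that starts 918 bases upstream averaged 2.11 FPKM with MK1775 and 0.82 FPKM in the libraries labelled Wee1 siRNA, and was listed at 0 in all NC libraries. At Plaur, the unnamed transcript with 9 exons averaged 1.64 FPKM with MK1775, nearly all from library 2, against at most 3.6e-05 FPKM in NC. Neither was present in all libraries of a group, and the locus sums of both genes overlapped between groups.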

How the results depend on the processing

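Plau kept its direction and its size under all 17 alternatives in both comparisons with NC, at -1.54 to -1.44 with MK1775 and -1.57 to -1.47 in the libraries labelled Wee1 siRNA. Several of these alternatives could not move it, so the count of 17 overstates the check. No unnamed transcript lies at Plau, and nearly all its FPKM is on 1 transcript. The minima, the replicate block and leaving out a library of the group not compared also leave its difference unchanged. Serpinb2, fitted without a minimum by alternatives chosen after seeing the data, ran from 0.59 to 4.08 with MK1775 and from 0.39 to 3.95 in the libraries labelled Wee1 siRNA. The pathway count for MK1775 minus NC was 14, but 9 with the most abundant named transcript and 22 with unnamed transcripts added; for the libraries labelled Wee1 siRNA it was 16, but 28 with unnamed transcripts added. Leaving out each library gave 11 to 14 and 12 to 17 pathway genes, and 3570 to 4348 and 3733 to 4333 genes in all. With unnamed transcripts added, Itgb2 turned to -0.54 with MK1775 and -0.64 in the libraries labelled Wee1 siRNA, and Plgrkt to 0.0496 with MK1775; Plgrkt in the libraries labelled Wee1 siRNA turned to -0.62 with the most abundant named transcript, and Lrp1 there ran from -0.17 to 0.0446 as each library was left out, the positive value coming without library 3 of that group. The call of Fn1 was lost with the most abundant named transcript in both comparisons (limma adjusted p = 0.422 and 0.304). The causes were not tested. For MK1775 minus the libraries labelled Wee1 siRNA the 1 called gene became 11 with no minimum, 2 with the most abundant named transcript, and 0 to 3 when each library was left out, 3 of these without MK1775 library 1. With no minimum, 2907 genes were higher and 2168 lower with MK1775; for the libraries labelled Wee1 siRNA the split was 3558 and 2249. With the replicate number as a block, 3881 genes were called for MK1775 minus NC, 4079 for the libraries labelled Wee1 siRNA minus NC and 0 between both treated groups, and 13, 14 and 0 pathway genes. Over the genes tested, deviations from the group mean correlated at -0.12 to 0.043 between same-numbered libraries. That cannot settle whether same-numbered libraries share a culture, a preparation or a run, which the labels do not say. Arms of 2 libraries were assumed to vary like the others. Other tools and count tests were not run.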
